A study of Mus musculus with 6 samples.

Results

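The genes described here are 33 transcripts of the machinery with which osteoclasts dissolve bone, and of the vacuolar proton pump (V-ATPase) that this machinery shares with the lysosomes of every cell. They were taken by gene symbol from a table of 27179 gene IDs, and all 33 matched an ID. RNA was sequenced from calvarial (skull bone) cells of C57Bl/6J mouse pups that were 5 days old. The cells had been released with collagenase and sorted by flow cytometry for a GFP transgene that depends on Osteocalcin-Cre, a recombinase made by mature osteoblasts. Of the 6 libraries, 3 are labelled as knockout of Cdc73 (also called Hrpt2, a subunit of the Paf1 transcription elongation complex) and 3 as wildtype, and both genotypes were sorted in the same way. The titles of the knockout libraries read Flox, and their genotype field reads KO. The labels do not say which exons are deleted, whether wildtype mice carry Cre, or whether each library is a separate animal, so p-values measure only the spread between these libraries, which may be technical. The question named in the title is what loss of the gene does to the amount and turnover of bone.

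Osteoclasts are large cells with several nuclei that form by fusion of precursors of the monocyte lineage under the cytokine RANKL. They seal off a patch of bone, pump protons and chloride into the space beneath them to dissolve mineral, and secrete proteases that cut the collagen left behind. The V-ATPase that acidifies this space consists of a membrane sector, V0, through which protons pass, and a cytosolic sector, V1, which splits ATP. Most subunits have the same form in nearly every cell, while osteoclasts are rich in the a3 subunit, encoded by Tcirg1, and the d2 subunit, encoded by Atp6v0d2. The members were therefore read in 3 groups, comprising 11 osteoclast-enriched genes, 7 more broadly expressed genes of acid secretion and signalling, and 15 ubiquitous V-ATPase genes.

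Library totals ranged from 14837272 to 16380767 counts in the knockout libraries and from 13591925 to 20993962 in the wildtype libraries. All levels are in CPM, which here means counts scaled to library size and corrected with TMM factors. Each log2 fold change (knockout over wildtype) is followed by ± its standard error, from the quasi-likelihood test of edgeR, and adjusted p refers to Benjamini-Hochberg adjustment over all genes tested. Osteoblast markers dominated both groups, with 12 markers summing to 237300 to 350900 CPM in knockout and 281400 to 307000 CPM in wildtype, and all 12 were detected in every library. Cdc73 itself measured 14.0, 14.7 and 14.4 CPM in knockout 1, 2 and 3 and 20.5, 12.8 and 21.7 CPM in wildtype 1, 2 and 3, with overlapping groups (log2 fold change -0.36 ± 0.22, edgeR adjusted p = 0.428), so its level did not check every label. Over the 13505 genes tested edgeR called 0%, and 8.26% had an unadjusted p under 0.05 and were higher in knockout, 6.35% lower. The knockout libraries were all above the wildtype range in 10.6% of genes and all below it in 9.81%. None of the 31 members tested passed the threshold of an adjusted p under 0.05. At an unadjusted p under 0.05, 7 were higher and 1 lower, and limma voom also called 0 members. Ocstamp, 1 of the 7, passed the filter on low counts only through its knockout libraries, so it had to be higher there. DESeq2 called 2 members as higher, where it called 1.94% of all genes as higher.

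The osteoclast-enriched group divided into genes that were higher in every knockout library and genes whose groups overlapped. Acp5, Nfatc1, Atp6v0d2, Dcstamp and Ocstamp lay higher in each knockout library than in any wildtype library, with fold changes fitted by edgeR from 1.64 to 4.50, while Ctsk, Itgb3 and Tcirg1 differed by less than 1 standard error. Of the 11 genes 9 were tested, with 7 positive and 2 negative fold changes, a median of 0.83 and a range of -0.05 to 2.17, where the median of all genes tested was -0.01. The groups were separate in 5 of the 9, beside 10.6% of all genes. Dcstamp and Ocstamp entered the test only because their knockout libraries passed the filter on low counts, so they had to be higher there, and the counts and the median are a description.

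**Figure D1:**
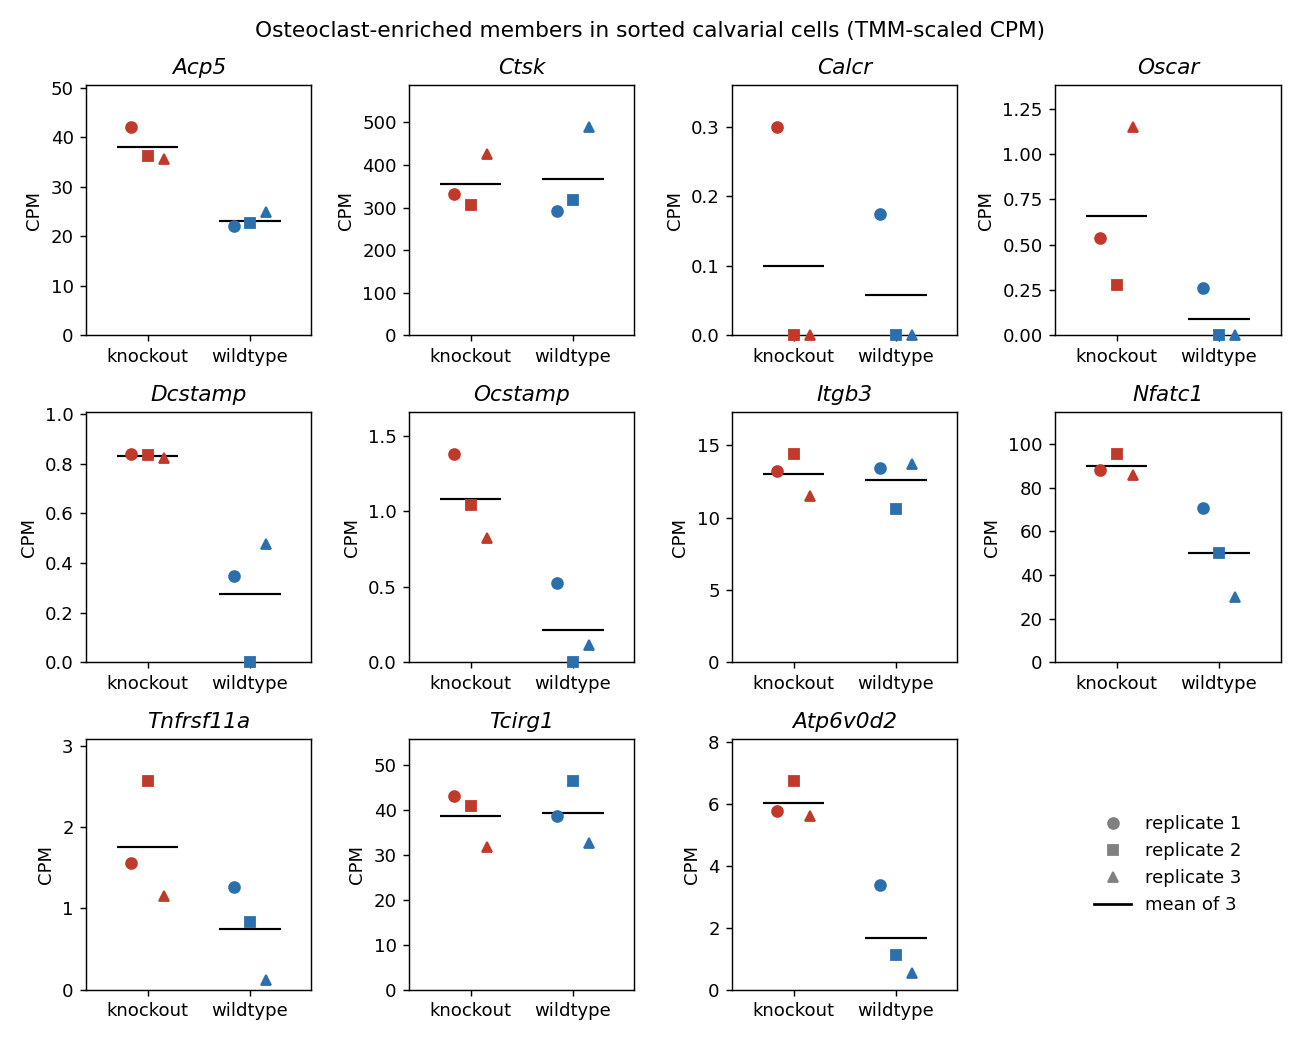
TMM-scaled CPM (vertical axes, each from 0) of the 11 osteoclast-enriched members in the 3 knockout (red) and 3 wildtype (blue) libraries, with the mean of each group as a bar. Acp5 sits at 35.6 to 42.1 CPM in knockout and 22.1 to 24.8 CPM in wildtype, while Ctsk and Itgb3 overlap between the groups.

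Among the enzymes that act on matrix, the acid phosphatase and the collagenolytic protease behaved differently. Acp5 encodes tartrate-resistant acid phosphatase, the classical stain for osteoclasts, and lies on chromosome 9 (22126727 to 22135746, mm10). It measured 42.1, 36.1 and 35.6 CPM in knockout 1, 2 and 3, against 22.1, 22.6 and 24.8 CPM in wildtype 1, 2 and 3. The groups did not overlap, and the gap between them was wider than the spread within either. Knockout averaged 37.9 ± 3.64 CPM and wildtype 23.2 ± 1.45 CPM (SD, n = 3 each). The log2 fold change was 0.71 ± 0.15, with an adjusted p = 0.273 in edgeR and an adjusted p = 0.0172 in DESeq2. The log2 fold change was 0.62 to 0.75 when any single library was left out. Ctsk encodes cathepsin K, the protease with which osteoclasts cut collagen, and lies on chromosome 3 (95499210 to 95509387). It measured 332, 307 and 425 CPM in knockout, against 292, 318 and 490 CPM in wildtype. The 2 ranges overlapped, with a log2 fold change of -0.05 ± 0.23 (edgeR adjusted p = 0.932). Per kilobase of exon Ctsk stood at 235 ± 41.1 CPM in knockout and 242 ± 71.1 CPM in wildtype, the highest level of the 33 members in both groups, and Acp5 at 18.7 ± 1.79 and 11.4 ± 0.714. Ctsk is also known to be expressed in cells of the osteoblast lineage and the periosteum.

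The promoters of this pair are shown because both genes are known targets of Nfatc1 in osteoclasts while their levels behaved differently here. The windows run from 250 bases before to 50 bases after an annotated start, read 5′ to 3′ on the gene's strand, and come from RefSeq (GRCm38.p6, the assembly called mm10). Capitals mark the core bound by NFAT factors, GGAAA, or its reverse complement TTTCC. For Acp5, which has several annotated starts, the window with the most matches is given (chr9:22130549-22130848, minus strand), beside the only window of Ctsk (chr3:95498960-95499259, plus strand).
Acp5: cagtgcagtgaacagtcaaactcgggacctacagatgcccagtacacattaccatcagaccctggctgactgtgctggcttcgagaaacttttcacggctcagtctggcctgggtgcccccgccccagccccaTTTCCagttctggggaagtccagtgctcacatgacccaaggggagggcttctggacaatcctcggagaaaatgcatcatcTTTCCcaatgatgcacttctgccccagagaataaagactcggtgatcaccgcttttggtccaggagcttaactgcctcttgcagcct
Ctsk: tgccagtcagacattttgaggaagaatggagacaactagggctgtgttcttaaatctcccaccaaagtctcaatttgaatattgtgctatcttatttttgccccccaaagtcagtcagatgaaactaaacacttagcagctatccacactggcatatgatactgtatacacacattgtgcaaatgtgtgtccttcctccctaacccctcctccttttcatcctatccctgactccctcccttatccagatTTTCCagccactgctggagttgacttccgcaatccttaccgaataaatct
The core occurred in 2 places in the Acp5 window shown and in 1 in the Ctsk window. Each other Acp5 window held it in 1 place, as the Ctsk window did, so the difference came from the choice of window. The core is short, and 61.3% of all 32851 promoter windows hold it, as did 19 of the 33 windows that belong to members (57.6%). RefSeq windows were found for 23 of the 33 members.

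Receptors and signalling genes of the osteoclast lineage were present at low or moderate levels. Tnfrsf11a encodes RANK, the receptor for RANKL. It measured 1.56, 2.57 and 1.15 CPM in knockout and 1.27, 0.834 and 0.119 CPM in wildtype. Wildtype 1 lay inside the knockout range and wildtype 3 far below it (log2 fold change 1.22 ± 0.72, edgeR adjusted p = 0.414). The value was 0.72 without wildtype 3 and 1.88 without wildtype 1. Set against wildtype 1 alone, it was 0.47. Nfatc1 encodes the transcription factor that directs osteoclast formation, and is also used by other cells, endothelial cells among them. Its level was 88.2, 95.5 and 85.7 CPM in knockout and 70.6, 50.2 and 30.1 CPM in wildtype. The knockout libraries lay close together and the wildtype libraries were spread widely below them. The log2 fold change was 0.83 ± 0.27 (edgeR adjusted p = 0.283). Without wildtype 1 it was 1.14 and passed in edgeR (adjusted p = 0.0442), without wildtype 3 it was 0.56, and with wildtype 1 as the only control it was 0.34 (edgeR adjusted p = 0.947). Itgb3, the β3 chain of the integrin that anchors osteoclasts to bone, measured 13.2, 14.4 and 11.5 CPM in knockout and 13.4, 10.6 and 13.7 CPM in wildtype (0.05 ± 0.19). Its groups overlapped, and with library size alone as the scaling its sign turned (-0.14).

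Oscar and Calcr were too rare to be tested. Oscar, a collagen receptor that costimulates osteoclast formation, had 9, 4 and 14 counts in the knockout libraries, against 6, 0 and 0 in the wildtype libraries. Calcr, the calcitonin receptor of mature osteoclasts, had 5, 0 and 0 counts in the knockout libraries, against 4, 0 and 0 in the wildtype libraries. A count of 0 allows up to 3 counts, which is 0.131 to 0.247 CPM across the 6 libraries, so absence cannot be told from a level under that floor. These floors cover counting error only.

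The fusion genes were near the limit of detection as well. Dcstamp and Ocstamp encode membrane proteins that osteoclast precursors need in order to fuse. Dcstamp had 14, 12 and 10 counts in knockout 1, 2 and 3, against 8, 0 and 8 in wildtype 1, 2 and 3. Ocstamp had 23, 15 and 10 in knockout, against 12, 0 and 2 in wildtype. Expressed as CPM every knockout library was above every wildtype library for both genes. The log2 fold changes were 1.52 ± 0.84 and 2.17 ± 0.88 (edgeR adjusted p = 0.398 and 0.323). The Ocstamp value was 1.65 without wildtype 2, 3.91 without wildtype 1 and 1.04 against wildtype 1 alone, and that of Dcstamp was 0.99 without wildtype 2.

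Atp6v0d2 had the largest fold change after Ocstamp among the tested members, with all knockout libraries above the wildtype range. It encodes the d2 form of a V0 subunit and is needed for efficient fusion of osteoclast precursors (chromosome 4, 19876838 to 19922566). It had 96, 97 and 68 counts in knockout, against 77, 16 and 9 in wildtype, which is 5.75, 6.73 and 5.59 CPM against 3.36, 1.11 and 0.537 CPM. The knockout libraries lay within a narrow range and wildtype 1 lay between them and wildtype 2 and 3. Knockout averaged 6.03 ± 0.619 CPM and wildtype 1.67 ± 1.49 CPM (SD, n = 3 each). The log2 fold change was 1.81 ± 0.55. The adjusted p was 0.277 in edgeR and 0.0409 in DESeq2. The size of the difference rested on which wildtype libraries were used. Without wildtype 1 it was 2.86 and passed in edgeR (adjusted p = 0.0301), without wildtype 3 it was 1.38, and with wildtype 1 as the only control it was 0.83 (adjusted p = 0.947). Without wildtype 1 edgeR called 2 members as higher, Nfatc1 and Atp6v0d2, where it called 2.13% of all genes as higher.

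Markers of monocytes and macrophages, from which osteoclasts form, were higher in the same libraries. All 16 markers had a positive fold change, with a median of 1.19 and a range of 0.81 to 1.64. Their summed level was 469, 341 and 195 CPM in knockout 1, 2 and 3, against 166, 168 and 114 CPM in wildtype 1, 2 and 3, and none of them was at 0 in any library. The summed level of Calcr, Oscar, Dcstamp, Ocstamp and Atp6v0d2 was 8.81, 8.89 and 8.38 CPM in knockout and 4.67, 1.11 and 1.13 CPM in wildtype. This sum leaves out the more abundant genes and is mostly Atp6v0d2, which is the only one of the 5 with a count in wildtype 2. With Acp5, Ctsk and Mmp9 added, the sum of 8 osteoclast markers overlapped between the groups. It was 587, 528 and 641 CPM in knockout and 439, 414 and 599 CPM in wildtype. The sum of all 11 osteoclast-enriched members, which is mostly Ctsk, overlapped between the groups, at 529, 505 and 599 CPM in knockout and 443, 450 and 592 CPM in wildtype. Between knockout 1 and 3 the macrophage sum differed widely while the sum of the 5 genes was nearly equal. Between wildtype 1 and 2 the macrophage sum was nearly equal, as was the sum of the 11 genes, and the sum of the 5 genes was lower in wildtype 2. Of these 5 genes 4 were at 0 in wildtype 2 and 2 in wildtype 3, as was 1 in knockout 2 and 1 in knockout 3. Wildtype 2 and 3 had counts for 14608 and 15712 gene IDs, against 17068 to 18024 in the knockout libraries and 17947 in wildtype 1. All 13 chondrocyte, 10 neutrophil, 12 endothelial and 6 erythroid markers were positive too, with medians of 2.15, 1.6, 1.24 and 1.57. EdgeR called none of them. Over all genes tested 49.3% were positive. Of the 6 erythroid markers 0 had an unadjusted p under 0.05 in edgeR and 0 were separate between the groups. The 12 osteoblast markers leaned the other way, with 3 positive, 9 negative and a median of -0.18. At an unadjusted p under 0.05 in edgeR, 1 of them was higher and 3 were lower. The chondrocyte sum was 11880 to 26850 CPM in knockout and 3560 to 10160 CPM in wildtype, and the neutrophil sum 61.7 to 200.3 and 21.9 to 59.8 CPM. The endothelial sum was 199.6 to 305 CPM in knockout and 101 to 198 CPM in wildtype. At 0 were 1 neutrophil marker in wildtype 2, 1 erythroid marker in knockout 3 and 2 in wildtype 2. The part of these other cells and of the number of detected genes in the osteoclast values was not tested. In sorted bulk RNA, more cells of a type and more RNA per cell cannot be told apart.

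**Figure D2:**
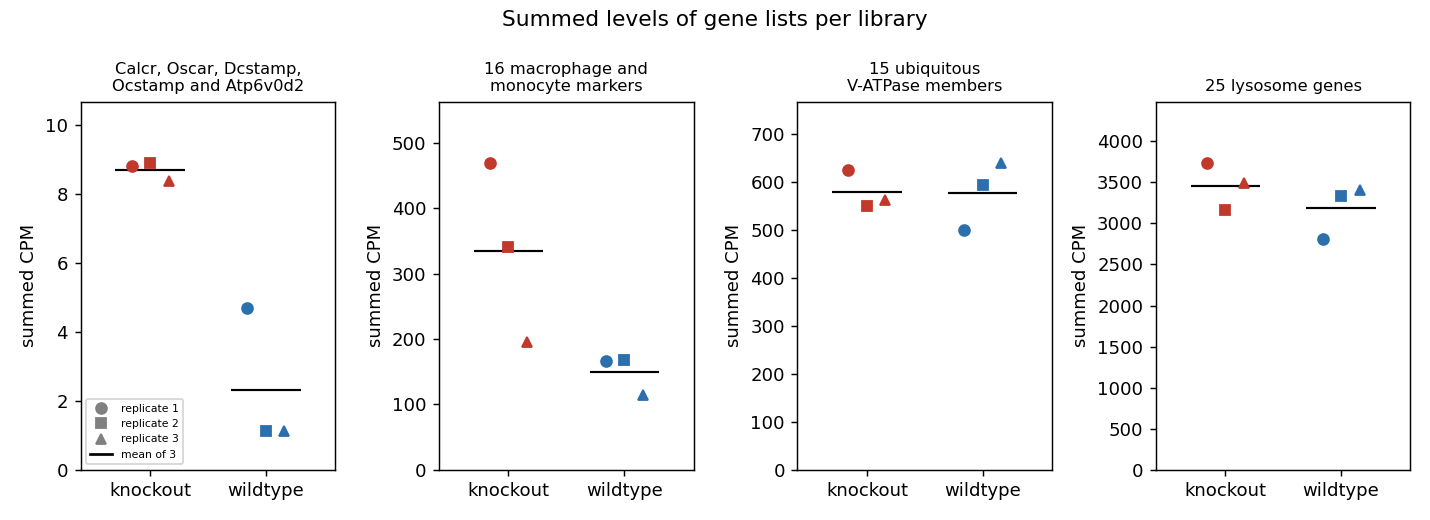
Summed TMM-scaled CPM per library (vertical axes, each from 0) for 5 osteoclast genes, 16 macrophage and monocyte markers, 15 ubiquitous V-ATPase members and 25 lysosome genes, with knockout in red, wildtype in blue and group means as bars. The sum of the 5 osteoclast genes, which leaves out Acp5, Ctsk and Mmp9, is 8.38 to 8.89 CPM in knockout and 1.11 to 4.67 CPM in wildtype. With those genes added (not plotted) it is 528 to 641 CPM in knockout and 414 to 599 CPM in wildtype, which overlap. The V-ATPase sums overlap too.

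Osteoclast genes outside the 33 members were mostly higher in knockout. In a list of 28 further genes of osteoclast formation and function, 27 were tested, 25 were positive and 2 negative, with a median log2 fold change of 0.65 and a range of -0.07 to 1.61. None passed the threshold in edgeR, 13 had an unadjusted p under 0.05 and were higher, and 12 were higher in every knockout library, beside 8.26% and 10.6% of all genes. Mmp9, a gelatinase that osteoclasts, neutrophils and growth plate cells secrete, measured 204, 177 and 172 CPM in knockout and 120, 72.1 and 83.2 CPM in wildtype (1.00 ± 0.21, edgeR adjusted p = 0.273, DESeq2 adjusted p = 0.000909). Csf1r, the receptor for the macrophage growth factor CSF1, measured 71.3, 56.7 and 34.8 CPM in knockout and 31.1, 24.8 and 13.2 CPM in wildtype (1.23 ± 0.33, edgeR adjusted p = 0.273, DESeq2 adjusted p = 0.014). Rac2, a GTPase of blood cells (1.06 ± 0.27), was also separate between the groups, whereas Spi1, which encodes the myeloid transcription factor PU.1 (1.34 ± 0.42), overlapped. Csf1r and Tyrobp of this list are also among the macrophage markers.

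The genes of acid secretion and signalling that many cells express overlapped between the groups except for Plekhm1. All 7 were tested, 5 were positive and 2 negative, with a median of 0.14 and a range of -0.26 to 1.09. Plekhm1, an adaptor for late endosomes and lysosomes whose loss causes osteopetrosis, was 1 of 7 without overlap, beside 10.6% of all genes. It measured 13.3, 15.3 and 11.8 CPM in knockout, against 11.1, 7.92 and 10.1 CPM in wildtype (0.47 ± 0.20, edgeR adjusted p = 0.335). Car2, the carbonic anhydrase that supplies protons, was the most variable member of this group, at 19.7, 13.2 and 7.23 CPM in knockout and 8.08, 1.39 and 9.25 CPM in wildtype. Knockout 3 lay below wildtype 1 and 3, and the log2 fold change was 1.09 ± 0.56 (edgeR adjusted p = 0.378). It was 0.61 without wildtype 2, 0.69 without knockout 1 and 1.44 without wildtype 3. Car2 is abundant in red blood cells, and the 6 erythroid markers summed to 255, 193 and 32.6 CPM in knockout 1, 2 and 3 and 76.4, 9.45 and 75.3 CPM in wildtype 1, 2 and 3. The libraries with the highest and the lowest Car2 were thus also those with the highest and the lowest erythroid sum, and the part of erythroid RNA in Car2 was not tested.

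The chloride channel and its partner were level. Clcn7, the chloride-proton exchanger of lysosomes and of the osteoclast's ruffled border, was at 24.9 ± 1.47 CPM in knockout and 22.5 ± 2.28 CPM in wildtype (0.14 ± 0.16). Ostm1, the β subunit that Clcn7 requires, was at 9.82 ± 0.256 CPM in knockout and 8.83 ± 1.85 CPM in wildtype (0.15 ± 0.21). Both signs turned with library size alone as the scaling (-0.05 and -0.06), a setting that moved the median of all genes to -0.21. Src, the tyrosine kinase needed for the ruffled border, was at 30.9 ± 1.64 CPM in knockout and 29.5 ± 2.04 CPM in wildtype (0.07 ± 0.15, and -0.13 with library size alone). Traf6, the adaptor that relays the RANK signal, was at 14.2 ± 2.22 and 17.1 ± 3.49 CPM (-0.26 ± 0.21), and Snx10, a sorting nexin whose mutation causes osteopetrosis, at 7.97 ± 2.08 and 8.33 ± 2.64 CPM (-0.05 ± 0.29, SD, n = 3 each).

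The ubiquitous V-ATPase genes differed in direction from subunit to subunit. All 15 were tested, 6 were positive and 9 negative, with a median log2 fold change of -0.11 and a range of -0.46 to 0.53, where all genes tested had a median of -0.01. Their summed level was 624, 549 and 563 CPM in knockout 1, 2 and 3, against 500, 593 and 639 CPM in wildtype 1, 2 and 3. Wildtype 1 was below every knockout library and wildtype 3 above every one, so the wildtype libraries enclosed the knockout range. In 4 genes the knockout libraries were all above the wildtype range and in 1 all below it, beside 10.6% and 9.81% of all genes. Below an unadjusted p of 0.05 lay 2 higher genes and 1 lower gene of the 15, beside 8.26% and 6.35% of all genes.

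Both subunits of the V1 head, where ATP is split, were among the 4. Atp6v1a, the catalytic A subunit, measured 59.2, 57.1 and 45.5 CPM in knockout and 44.3, 31.3 and 40.4 CPM in wildtype (0.48 ± 0.18, edgeR adjusted p = 0.309). Atp6v1b2, the B2 subunit that alternates with A in the head, measured 36.8, 30.8 and 28.3 CPM in knockout and 26.3, 24.2 and 25.6 CPM in wildtype (0.33 ± 0.16, edgeR adjusted p = 0.360). In both genes the lowest knockout library stood only just above the highest wildtype library. The third was Atp6ap2, an accessory protein also known as the prorenin receptor, at 40.1, 38.1 and 34.2 CPM in knockout and 31.8, 24.8 and 21.2 CPM in wildtype (0.53 ± 0.18, edgeR adjusted p = 0.291). The fourth was Atp6v0c, the proteolipid of the rotating membrane ring, at 34.2, 30.3 and 29.1 CPM in knockout and 24.3, 26.1 and 24.1 CPM in wildtype (0.33 ± 0.15, edgeR adjusted p = 0.345). A pseudogene copy, Atp6v0c-ps2, received 332 to 486 counts in knockout and 275 to 511 in wildtype, similar to the 354 to 571 and 375 to 557 of Atp6v0c itself. These counts are not scaled to library size and do not compare the groups. Reads of Atp6v0c may be divided between the copies, so its value is uncertain.

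The remaining subunits were level or lower. Atp6v1g1, the G1 subunit of the V1 stalk, was the only one of the 15 that lay lower in every knockout library, at 6.23, 6.11 and 5.51 CPM against 7.69, 8.13 and 8.77 CPM in wildtype (-0.46 ± 0.20, edgeR adjusted p = 0.341). Its stalk partner Atp6v1e1 measured 43.3, 33.4 and 36.7 CPM in knockout and 36.3, 52.8 and 61.4 CPM in wildtype (-0.41 ± 0.21), and Atp6v0e of the membrane sector 43.1, 33.1 and 43.7 CPM and 35.0, 60.7 and 64.6 CPM (-0.42 ± 0.24). For these last genes wildtype 1 lay inside the knockout range and wildtype 2 and 3 above it, and with wildtype 1 as the only control both values were positive (0.05 and 0.18). Atp6v1f had a fold change of -0.29 ± 0.25, Atp6v0d1 of -0.25 ± 0.18, Atp6v1c1 of -0.16 ± 0.16, Atp6v0b of -0.13 ± 0.22, Atp6v1d of -0.11 ± 0.21 and Atp6v1h of -0.09 ± 0.17. These 6 genes encode the V1 subunits F, C1, D and H, the V0 subunit d1 and another ring proteolipid, and their groups overlapped in every case. Atp6v0a1, the a1 form of the large V0 subunit, was at 35.5 ± 0.666 CPM in knockout and 33.6 ± 5.56 CPM in wildtype (0.08 ± 0.16, and -0.12 with library size alone). Atp6ap1, an accessory subunit, was at 107 ± 4.07 and 94.5 ± 9.88 CPM (0.19 ± 0.15, and -0.02 with library size alone; SD, n = 3 each).

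**Figure D3:**
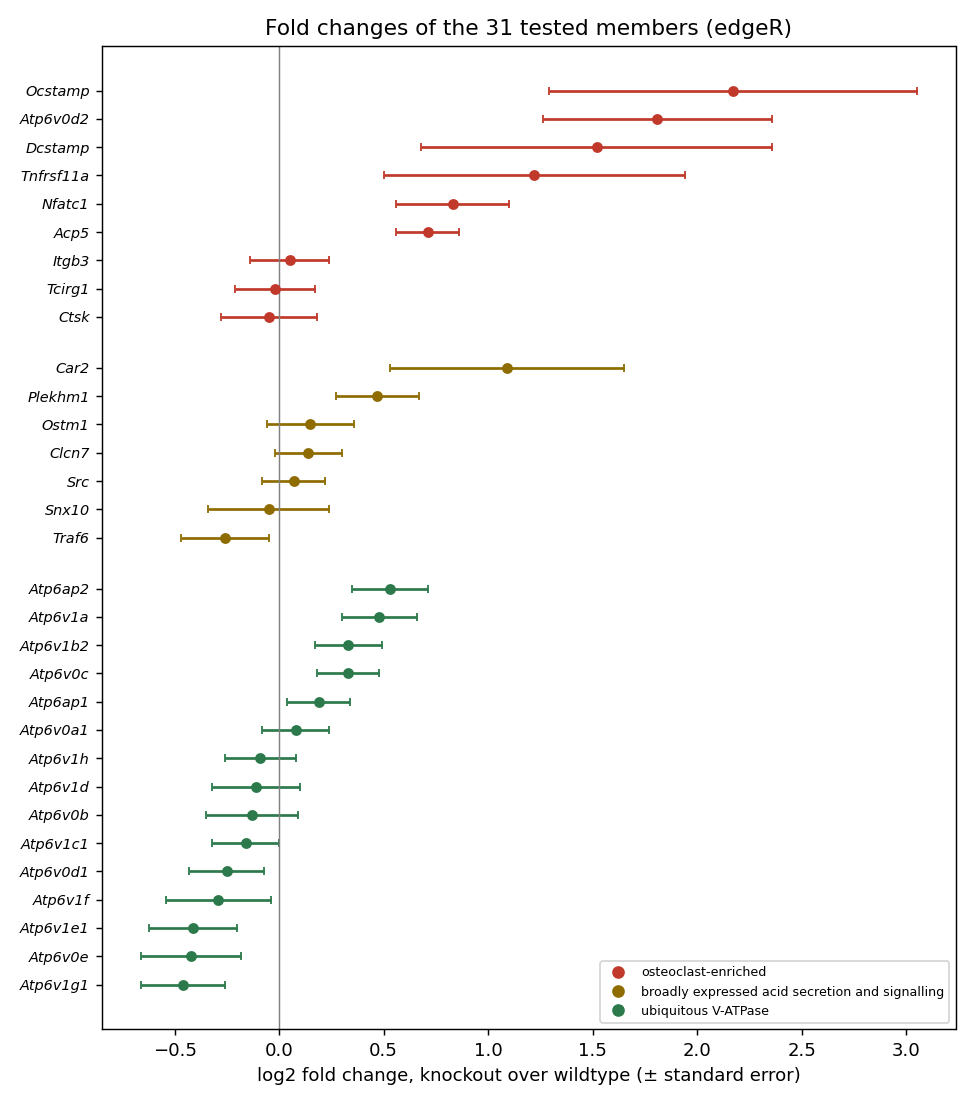
Log2 fold change of knockout over wildtype (horizontal axis, error bars are standard errors from edgeR) for the 31 members tested, grouped as osteoclast-enriched, broadly expressed and ubiquitous V-ATPase. Osteoclast-enriched genes lie between -0.05 and 2.17 and the ubiquitous V-ATPase genes between -0.46 and 0.53. The 2.17 is Ocstamp, which like Dcstamp passed the filter only through its knockout libraries, so both had to be higher there.

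A set of promoters is shown because lysosomal genes, V-ATPase subunits among them, are known targets of the transcription factors TFEB and MITF, which bind the hexamer CACGTG. Each line gives 70 bases, 5′ to 3′ on the gene's strand, with the hexamer in capitals, from RefSeq (GRCm38.p6). The stretches run from 50 bases before to 20 bases after an annotated start, and for Atp6v1a from -160 to -91 relative to it. They lie at chr4:117887310-117887379 (Atp6v0b), chr8:105566045-105566114 (Atp6v0d1), chr17:26676346-26676415 (Atp6v0e), chr16:44139350-44139419 (Atp6v1a) and chr17:25133341-25133410 (Clcn7), on the minus strand except for Atp6v0e and Clcn7. The Atp6v1a start used is internal, since the gene's annotated 5′ end is at 44139702, so its stretch lies within the gene.
Atp6v0b: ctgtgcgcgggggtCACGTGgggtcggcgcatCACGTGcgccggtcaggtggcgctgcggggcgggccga
Atp6v0d1: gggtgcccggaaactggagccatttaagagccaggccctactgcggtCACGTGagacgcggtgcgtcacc
Atp6v0e: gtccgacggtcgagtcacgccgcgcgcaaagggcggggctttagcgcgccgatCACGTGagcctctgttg
Atp6v1a: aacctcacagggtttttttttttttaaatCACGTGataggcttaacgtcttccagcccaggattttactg
Clcn7: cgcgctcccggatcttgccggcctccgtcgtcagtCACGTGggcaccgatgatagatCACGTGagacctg
The hexamer, which reads the same on both strands, was found in 4 of 13 windows of ubiquitous V-ATPase genes, 1 of 9 of the broadly expressed genes and 0 of 11 of the osteoclast-enriched genes. In all, 5 of 33 member windows held it (15.2%), beside 7.15% of all windows. Atp6v0b and Clcn7 carried it in 2 places. Their levels differed in direction, since Atp6v1a was higher in every knockout library and the other 4 overlapped. The longer CLEAR element that contains this hexamer, flanked by GT and AC, was in none of the member windows and in 0.326% of all windows. The AP-1 motif TGACTCA, searched on both strands, was in 1 member window, of Snx10, and in 5.20% of all windows, and the PU.1 motif GAGGAAGT was in 0 member windows and 3.20% of all.

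Osteoclast-enriched and ubiquitous subunits were then compared within each library. The groups were separate for the pump position filled by d1 or d2 and overlapped for the position filled by a1 or a3. Atp6v0d2 reached 5.97%, 8.35% and 6.13% of the Atp6v0d1 level per kilobase of exon in knockout 1, 2 and 3, against 3.81%, 1.13% and 0.406% in wildtype 1, 2 and 3. The log2 ratio of CPM (with 0.5 CPM added to each gene) was -3.36, -2.89 and -3.32 in knockout and -3.93, -5.34 and -6.40 in wildtype. Every knockout library was above every wildtype library, and the knockout minus wildtype difference was 2.03 (exact two-sided permutation test, p = 0.1, the smallest that 3 against 3 libraries allow, 0.2 adjusted over the 2 ratios). The difference was 0.74 with wildtype 1 as the only control. Even in knockout the d2 transcript was a small part of the d1 level.

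Tcirg1 encodes the a3 subunit whose loss is a common cause of osteopetrosis (chromosome 19, 3896050 to 3907133). It measured 43.1, 41.0 and 31.8 CPM in knockout and 38.8, 46.5 and 32.6 CPM in wildtype, with overlapping groups (-0.02 ± 0.19, edgeR adjusted p = 0.963). Unlike d2 it was abundant in all 6 libraries, and per kilobase it stood at 172%, 168% and 126% of Atp6v0a1 in knockout and 166%, 169% and 165% in wildtype. The difference in log2 ratio was -0.11 (exact two-sided permutation test, p = 0.9, and 0.9 adjusted over the 2 ratios), and without knockout 3 it was 0.03. The wildtype ratios were nearly equal to each other although these libraries differed in Atp6v0d2. Whether the d and a positions differed from each other was not tested.

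**Figure D4:**
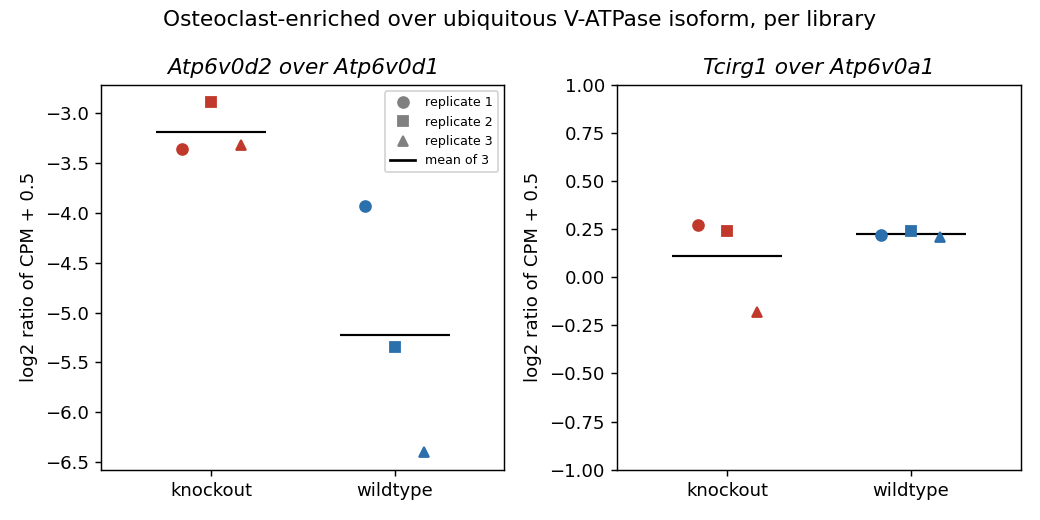
Log2 ratio of CPM, with 0.5 CPM added to each gene, for Atp6v0d2 over Atp6v0d1 (left) and Tcirg1 over Atp6v0a1 (right) in each knockout (red) and wildtype (blue) library, with group means as bars. The d2 over d1 ratios are -3.36 to -2.89 in knockout and -6.40 to -3.93 in wildtype, and the a3 over a1 ratios overlap.

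By exon length the pump subunits spanned a wide range of levels in both groups. Atp6v0d1, Atp6ap1 and Atp6v0b were the highest, at 32.9 ± 2.95, 35.5 ± 1.34 and 23.8 ± 3.74 CPM per kilobase in knockout and 39.1 ± 8.49, 31.2 ± 3.27 and 26.0 ± 6.70 in wildtype (SD, n = 3 each). Atp6v1h and Atp6v1c1 were the lowest of the ubiquitous subunits, at 3.60 ± 0.193 and 3.66 ± 0.239 in knockout and 3.84 ± 0.670 and 4.11 ± 0.496 in wildtype. Atp6v0d2 stood below all of them, at 2.22 ± 0.228 in knockout and 0.615 ± 0.550 in wildtype. Exon lengths were those of all annotated isoforms together, so the order between genes is approximate.

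**Figure D5:**
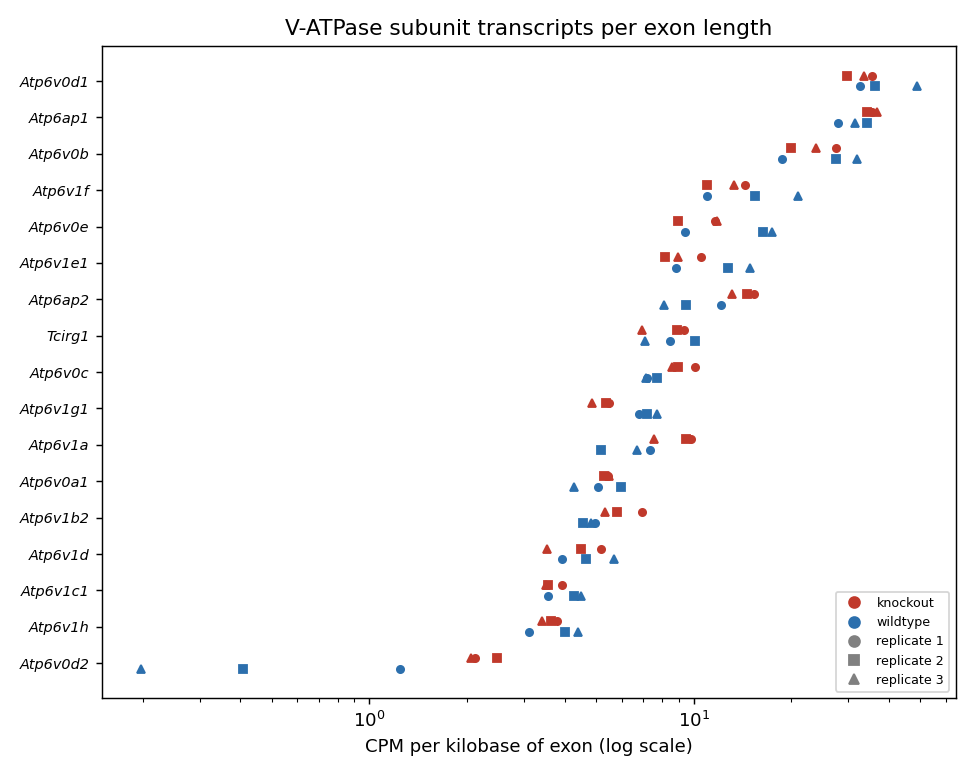
CPM per kilobase of exon (horizontal log axis) of 17 V-ATPase genes in each knockout (red) and wildtype (blue) library, ordered by the wildtype mean. Atp6v0d2 is at 2.22 ± 0.228 in knockout and 0.615 ± 0.550 in wildtype (SD, n = 3 each), below every ubiquitous subunit.

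Other genes of the pump and of the lysosome had medians near that of all genes. Of 17 further V-ATPase isoforms and assembly factors 12 were tested, 7 positive and 5 negative, with a median of 0.14 and a range of -0.70 to 0.70. Tmem199, which helps to assemble the pump in the endoplasmic reticulum, measured 3.00, 2.57 and 2.30 CPM in knockout and 3.80, 5.14 and 3.88 CPM in wildtype (-0.70 ± 0.30, edgeR adjusted p = 0.338). Its partner Ccdc115 was also lower in every knockout library (-0.36 ± 0.22). They were the only 2 of the 12 that were lower in this way, beside 9.81% of all genes. Dmxl2, a regulator of V1 assembly (0.70 ± 0.32), and the TLDc-domain gene Ncoa7 (0.39 ± 0.24) overlapped between the groups. Of 25 lysosome genes all were tested, 18 were positive and 7 negative, with a median of 0.12, and 6 were higher in every knockout library, beside 10.6% of all genes. Scarb2, the receptor that carries glucocerebrosidase to lysosomes, measured 39.1, 36.4 and 36.5 CPM in knockout and 26.9, 27.9 and 23.7 CPM in wildtype (0.51 ± 0.15, edgeR adjusted p = 0.273). The cathepsin gene Ctsl measured 205, 189 and 220 CPM in knockout and 136, 149 and 158 CPM in wildtype (0.47 ± 0.15, edgeR adjusted p = 0.288), in contrast to the overlapping values of Ctsk. Gla (0.59 ± 0.26), a galactosidase, overlapped between the groups.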

How the data were processed

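The authors deposited 1 table of whole-number counts per Entrez gene ID, which per the submitters' processing notes was made with CASAVA 1.7, Subread and featureCounts on mm10. Strand use is not given, so antisense and overlapping genes cannot be told apart. Of the 33 members 6 share exon bases with another annotated gene, and 1 (Atp6v0b) shares at least 10% of them. Every column was assigned by its name (0 left over). Names and positions came from RefSeq (GRCm38.p6) and exon lengths from GENCODE M21.

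Counts were tested in edgeR 4.0.16 (R 4.3.3) with filterByExpr, which here asked for 0.655 CPM in at least 3 libraries, TMM factors (0.813 to 1.09) and the two-sided quasi-likelihood test without covariates. Adjustment was by Benjamini-Hochberg over all 13505 genes tested, and the standard error is the fold change divided by the root of the F statistic. DESeq2 1.42.0 and limma 3.58.1 were alternatives, and DESeq2 was run on the unfiltered table. Isoform ratios used an exact permutation test in SciPy 1.17.1. No pair of libraries agreed within sampling noise (chi-square per degree of freedom 18.3 to 139).

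The members and all lists were chosen with earlier results of these data known, so members are read from the test over all genes and no list is tested. Members, Cdc73 and up to 4 genes of smallest p in each pathway list are named, except 1 that is not reported here; Atp6v0c-ps2 and Tyrobp were named after their values were seen.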

Additional observations from a re-analysis of the deposited data

How the results depend on the processing

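Over all genes edgeR called 24 without the filter on low counts, DESeq2 288, and edgeR with the replicate number as a block 236. Leaving out each library gave 0 to 409, the 409 without wildtype 1. Members called were 2 with DESeq2 (Acp5 and Atp6v0d2) and 0 to 2 when each library was left out. The replicate block called 0 members. Dcstamp and Ocstamp did not pass the filter without knockout 1. Same-numbered libraries deviated from their group means with correlations of 0.115, -0.0743 and 0.222, so the numbers were not taken to pair the libraries. The block left the differences of the isoform ratios at 2.03 and -0.11 (exact sign-flip test, p = 0.25 and 0.75). The smallest two-sided p that sign flips of 3 pairs allow is 0.25.

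The median of the osteoclast-enriched members was 0.63 with library size alone and 0.62 to 1.14 when each library was left out. With wildtype 1 as the only control, a setting chosen after seeing the data, it was 0.62. Without knockout 1 the median of 0.62 was over 7 genes instead of 9, since Dcstamp and Ocstamp were not tested there. The median of the broadly expressed members was -0.06 with library size alone and 0 to 0.19 when each library was left out. The ubiquitous V-ATPase median was -0.29 with library size alone and 0.21 with wildtype 1 as the only control, and -0.25 to 0.01 when each library was left out. The Tcirg1 over Atp6v0a1 difference ran from -0.19 to 0.03 and that of Atp6v0d2 over Atp6v0d1 from 1.44 to 2.68 when each library was left out. The causes were not tested.

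Of 31 members tested, 17 changed sign under at least 1 alternative. With library size alone these were Itgb3 (-0.14), Src (-0.13), Clcn7 (-0.05), Ostm1 (-0.06), Atp6v0a1 (-0.12) and Atp6ap1 (-0.02), and with voom Snx10 (0.02). With wildtype 1 as the only control they were Ctsk (0.27), Itgb3 (-0.05), Src (-0.01), Ostm1 (-0.15), Snx10 (0.33), Atp6v0b (0.33), Atp6v0d1 (0.01), Atp6v0e (0.18), Atp6v1c1 (0.04), Atp6v1d (0.15), Atp6v1e1 (0.05), Atp6v1f (0.22) and Atp6v1h (0.21). When each library was left out, values ran from -0.21 to 0.21 for Ctsk, -0.07 to 0.12 for Itgb3, -0.15 to 0.10 for Tcirg1, 0 to 0.08 for Src, -0.24 to 0.21 for Snx10, -0.04 to 0.19 for Atp6v0a1, -0.34 to 0.03 for Atp6v0b, -0.26 to 0.03 for Atp6v1d and -0.24 to 0.01 for Atp6v1h.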

Other observations

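The wildtype libraries took different places against the knockout libraries, and the member groups differed in this. Over all genes tested wildtype 1, 2 and 3 lay below every knockout library in 23.8%, 39.0% and 39.4% of genes and above every one in 24.5%, 36.6% and 39.4%. For the 9 tested osteoclast-enriched genes they lay below every knockout library in 6, 7 and 6. These counts include Dcstamp and Ocstamp, which passed the filter only through their knockout libraries and so had to be higher there. For the 15 ubiquitous V-ATPase genes wildtype 1 lay below in 9 and above in 1, while wildtype 2 lay below in 4 and above in 9, and wildtype 3 below in 6 and above in 9.

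Fold changes were positively related to exon length across all 13038 tested genes with a length (Spearman's rho 0.26, a description over genes of the same libraries). The rho was 0.39 over the 15 ubiquitous V-ATPase genes, 0.13 over the 9 osteoclast-enriched genes, -0.64 over the 7 broadly expressed genes and 0.07 over all 31 tested members. The part of length in the member values was not tested.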
